A study of Bos taurus with 6 samples.

Results

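The genes described here encode the subunits of the oxidative phosphorylation complexes, measured in bovine articular chondrocytes with and without transforming growth factor β1 (TGF-β1). They were chosen by name, without use of any measured value: a gene was taken if its probe sets on the array carried 1 gene symbol and that symbol began with NDUFA, NDUFB, NDUFC, NDUFS, NDUFV, SDHA to SDHD, UQCR, COX4 to COX8 or ATP5. This gave 88 of the 9155 annotated genes, from 115 probe sets, and each gene's value is the mean of its probe sets. Of the 88 genes, 77 encode subunits: 36 of complex I, 4 of complex II, 8 of complex III, 13 of complex IV and 16 of complex V. The name also brought in 8 assembly factors (NDUFAF3, NDUFAF5, NDUFAF6, NDUFAF8 and SDHAF1 to SDHAF4) and 3 genes that are not subunits of the complex their name recalls (NDUFA4L2, COX7A2L and ATP5IF1). They are described apart from the subunits. Of 99 reference protein-coding genes with such names, 11 were not analysed here, among them COX4I2, COX6B1 and COX7B.

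The cells were taken from full-thickness cartilage slices of bovine metacarpal-phalangeal joints and plated as micromass, a dense drop of cells that attaches and lays down cartilage matrix. After an overnight culture, 3 cultures received vehicle for 8 hours and are called untreated here, and 3 received 5 ng/ml TGF-β1 for the same time. The study grew cultures of 3 cows with and without TGF-β1. The arrays are numbered 1 to 3 within each group, but the labels do not say that a number stands for a cow. Ages, breeds and sexes of the animals are not given in the sources used here. RNA was amplified in 2 cycles from oligo dT primers before hybridization to Affymetrix Bovine Genome arrays, with 6 arrays in all.

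Oxidative phosphorylation takes place in the inner mitochondrial membrane. Complexes I and II pass electrons from NADH and succinate to ubiquinone, complex III passes them on to cytochrome c, and complex IV hands them to oxygen, while complexes I, III and IV pump protons that complex V, the ATP synthase, lets back to make ATP. Most subunits are encoded in the nucleus, and a few in mitochondrial DNA. Articular cartilage has no blood vessels, and its chondrocytes are known for drawing much of their ATP from glycolysis.

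All values are log2 signals that the authors centred, probe set by probe set, on the median of the 6 arrays. A value of 0 is therefore the middle of that gene's own 6 arrays and says nothing of how strongly the gene was expressed, so levels cannot be compared between genes and the cell type cannot be checked by the level of its markers. In such RNA pools, fewer cells of a type and less RNA per cell cannot be told apart. Replicate numbers paired the arrays (correlations of same-numbered deviations 0.740, 0.694 and 0.845 across probe sets, and -0.683 to 0.185 for differently numbered ones). Both arrays numbered 3 stood apart on the first principal component. Spike-in controls, which are added to every sample, were bright on 1 array, TGF-β replicate 2, where 18 probe sets had a median of 1.53 log2 units against -0.17 to 0.06 elsewhere. Medians of whole arrays ranged from -0.01 to 0.02. The limma p-values weigh a gene's own spread between these 3 pairs of cultures together with the spread typical of all genes. The latter had the larger weight (4.98 prior against 2 residual degrees of freedom). SE and intervals come from the same fit and are likewise not those of a gene's 3 pairs alone.

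After 8 hours of TGF-β, none of the oxidative phosphorylation genes passed the test. The paired limma fit called 0 of 88 at an adjusted p of 0.05, where 6.82% of all genes tested were called, 2.24% higher and 4.58% lower. At an unadjusted p under 0.05 the same fit gave 11 members, against 22.5% of all genes. Of these, 4 were higher (8.41% of all genes) and 7 lower (14.1% of all genes). A limma fit on the groups alone called 0 members, with 0 at an unadjusted p under 0.05, and the methods' t-test called 0 after adjustment and had 1 at an unadjusted p under 0.05. The lowest adjusted p among the members in the paired limma fit was 0.0679, for the assembly factor NDUFAF6. On single probe sets, 0 of the members' 115 were called, against 5.9% of all 24016, and 9 had an unadjusted p under 0.05.

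The differences were also small in size. TGF-β minus untreated ranged from -0.38 log2 units for ATP5MC2, which encodes the c subunit of the ATP synthase rotor, to 0.42 for COX6B2, an isoform of a complex IV subunit known from testis. These are a 0.767-fold and a 1.34-fold level. For 45 of 88 genes the difference was under 0.1 log2 units in size, and its median over the 88 was 0.00, against -0.01 over all genes. The 95% interval lay within 1 log2 unit of 0 for all 88 genes and within 0.5 for 82 of them. The interval reached furthest at 0.651-fold on the low side and 1.62-fold on the high side, and differences inside these bounds may have gone undetected with 3 pairs. Among all genes that passed the paired test, the smallest difference was 0.378 log2 units in size (1.30-fold) and the median size was 0.624. The SD of the differences over the 88 genes was 0.149 log2 units, compared with 0.286 over all genes.

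**Figure D1:**
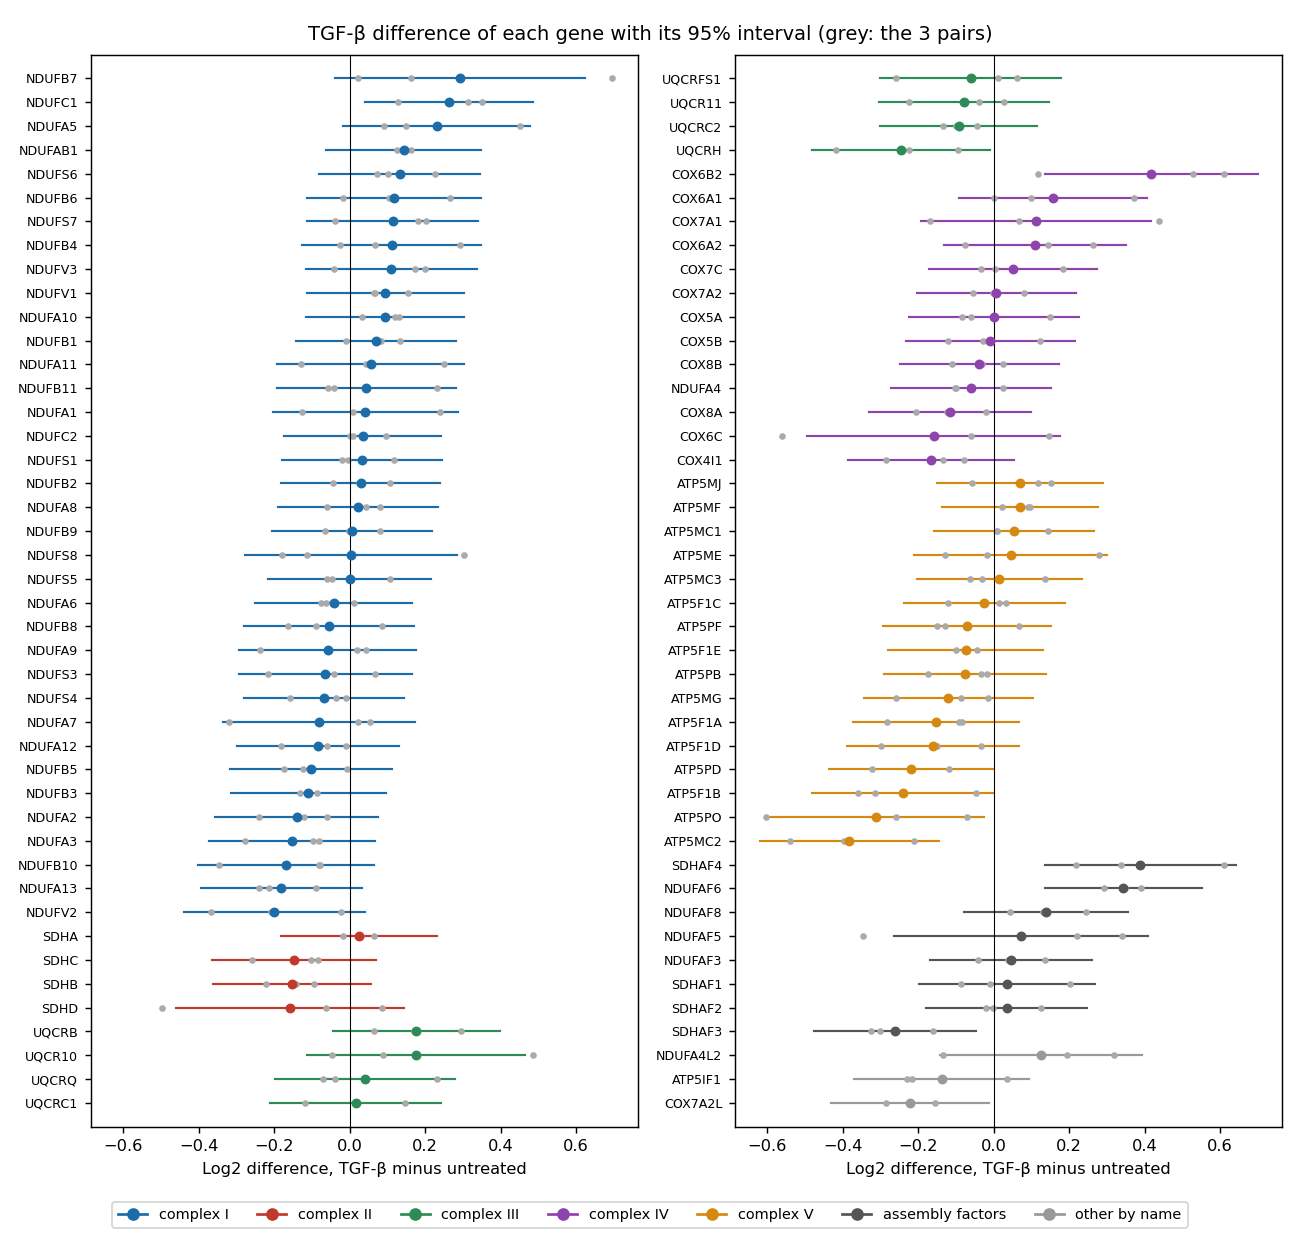
TGF-β minus untreated in log2 units (horizontal axis) for each of the 88 genes, coloured by complex. Large points and lines are the paired limma estimate with its 95% interval and grey points the 3 replicate pairs. The estimates run from -0.38 to 0.42, all intervals stay within 1 log2 unit of 0, and no gene passed the adjusted threshold.

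In 3 members the untreated and TGF-β values did not overlap, whereas 10.9% of all genes had no overlap. Of the 3, 2 were higher with TGF-β (5.05% of all genes) and 1 lower (5.83% of all genes). The acyl carrier protein NDUFAB1, an accessory subunit of complex I, stood at 0.04, -0.09 and -0.01 log2 units in the untreated arrays of replicates 1, 2 and 3 and at 0.17, 0.07 and 0.13 in the TGF-β arrays (difference 0.14, limma adjusted p = 0.397). COX6A1, the widely expressed isoform of complex IV subunit 6A, had -0.15, 0.02 and 0.04 against 0.22, 0.11 and 0.04 (difference 0.16, limma adjusted p = 0.446). COX4I1, a regulatory subunit of the same complex, had 0.11, 0.07 and 0.02 against -0.02, -0.21 and -0.06 (difference -0.17, limma adjusted p = 0.356). The gap between the groups was a few hundredths of a log2 unit in COX4I1 and less in COX6A1, and none of the 3 passed the test. NDUFAB1 and COX6A1 are each the mean of 2 probe sets, and on each probe set alone the groups overlapped. The TGF-β differences of the COX6A1 probe sets were 0.34 and -0.03. NDUFAB1 is named because the count is small, after its values were seen. The sign was the same in all 3 pairs for 16 genes that were higher (19.8% of all genes) and 26 that were lower (24.4% of all genes).

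Complex I, which oxidises NADH and is the largest of the complexes, had 22 of its 36 genes above 0 and 14 below. The median difference was 0.03 log2 units, and it was -0.01, 0.09 and -0.02 in the pairs of replicates 1, 2 and 3 (SD 0.0628). The 10 genes of the N module, which takes the electrons from NADH, had a median of -0.05, the 5 of the Q module, which passes them to ubiquinone, 0.00, and the 21 of the membrane arm 0.03. The 6 core subunits, which are shared with bacteria, had a median of 0.02, and the 30 accessory ones 0.03.

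At the ends of this range were an accessory and a core subunit. NDUFB7, an accessory subunit of the membrane arm, stood at -0.21, -0.56 and 0.05 untreated and at -0.05, 0.13 and 0.07 with TGF-β. Its difference was 0.29 ± 0.140 log2 units (limma SE, n = 3 pairs, limma adjusted p = 0.279). It was 0.70 of a log2 unit in the pair of replicate 2 compared with 0.16 and 0.02 in the others. The core subunit NDUFV2 carries an iron-sulphur cluster of the N module. It stood at 0.06, -0.06 and 0.28 untreated and at -0.15, -0.42 and 0.26 with TGF-β. Its difference was -0.20 ± 0.102 (limma SE, n = 3 pairs, limma adjusted p = 0.310). In both genes the groups overlapped, and the pair of replicate 3 showed the smallest difference.

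Complex II, succinate dehydrogenase, belongs also to the citric acid cycle and pumps no protons. Its 4 genes had a median difference of -0.15 log2 units, with -0.07, -0.20 and -0.02 in the 3 pairs (SD 0.0929). SDHA, the flavoprotein that binds succinate, stayed close to 0 on every array, with -0.00, 0.00 and -0.03 untreated and -0.02, 0.03 and 0.04 with TGF-β (difference 0.03, 95% interval -0.18 to 0.23). SDHD, a membrane anchor, stood at 0.06, 0.01 and -0.08 untreated and at -0.00, -0.49 and 0.00 with TGF-β. Its difference of -0.16 (95% interval -0.46 to 0.14; limma adjusted p = 0.534) rested on the low TGF-β array of replicate 2, and it was 0.01 without that replicate. The iron-sulphur subunit SDHB and the other anchor SDHC both had -0.15, with the same sign in all 3 pairs (limma adjusted p = 0.377 and 0.408), and are given to complete the complex.

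Complex III had 4 genes above 0 and 4 below, and a median difference of -0.02 log2 units (-0.01, 0.09 and -0.06 in the 3 pairs, SD 0.0743). UQCRB helps to form the ubiquinone-binding site. It stood at 0.15, -0.24 and -0.33 untreated and at 0.21, 0.06 and -0.16 with TGF-β. Its difference was 0.18 ± 0.0935 (limma SE, n = 3 pairs, limma adjusted p = 0.329). The hinge protein UQCRH sits beside cytochrome c1. It stood at 0.24, 0.19 and -0.01 untreated and at 0.01, -0.23 and -0.11 with TGF-β. Its difference was -0.25 ± 0.0999 (limma SE, n = 3 pairs, limma adjusted p = 0.207). Each kept 1 sign in all 3 pairs, and in each the groups overlapped. Cytochrome c1 itself, CYC1, had a difference of 0.24 (limma adjusted p = 0.212).

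Complex IV, cytochrome c oxidase, includes several subunits with alternative isoforms, and none of these pairs gave a gene that passed the test. The median over its 13 genes was 0.00 log2 units (-0.03, 0.03 and -0.02 in the 3 pairs, SD 0.0295). COX6B2 had the highest difference of all 88 genes. It stood at 0.04, -0.52 and -0.16 untreated and at 0.57, 0.09 and -0.04 with TGF-β. Its difference was 0.42 ± 0.119 (limma SE, n = 3 pairs, limma adjusted p = 0.0903). Each TGF-β array was above the untreated array of its number, but the values of the groups overlapped. Without replicate 3 the difference was 0.57 with an limma adjusted p of 0.0439, and this was the only call among the 88 genes in any of the 10 alternative settings.

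For the other isoforms, the 95% interval of each difference held 0. COX6A2, the heart and skeletal muscle isoform of subunit 6A, stood at 0.04, 0.06 and -0.36 untreated and at -0.04, 0.20 and -0.10 with TGF-β (0.11, interval -0.13 to 0.35), next to 0.16 for COX6A1 (interval -0.09 to 0.41). COX7A1, the heart and muscle isoform of subunit 7A, stood at -0.02, -0.03 and 0.02 untreated and at 0.05, 0.41 and -0.15 with TGF-β (0.11, interval -0.19 to 0.42). Its widespread counterpart COX7A2 stood at 0.00, -0.16 and 0.33 untreated and at -0.00, -0.22 and 0.41 with TGF-β (0.01, interval -0.20 to 0.22). The TGF-β array of replicate 2 was the highest for COX7A1 and the lowest for COX7A2. NDUFA4, once assigned to complex I and now counted in complex IV, had a difference of -0.06 (interval -0.27 to 0.15), with 0.04, -0.08 and 0.37 untreated and -0.06, -0.18 and 0.39 with TGF-β. Its relative NDUFA4L2, known as a hypoxia-responsive gene, stood at 0.07, 0.02 and -0.19 untreated and at -0.07, 0.34 and -0.00 with TGF-β (0.13, interval -0.14 to 0.39).

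In complex V, which makes ATP from the proton gradient, most genes lay below 0. Its 16 genes had a median difference of -0.07 log2 units, with -0.11, -0.13 and -0.03 in the 3 pairs (SD 0.0490), and 11 were below 0 (51.9% of all genes) and 5 above. Of the 16, 9 were lower in all 3 pairs (24.4% of all genes). All 5 genes of the catalytic F1 part (ATP5F1A to ATP5F1E) were below 0, with a median of -0.15. Of these, ATP5F1D is the mean of 2 probe sets that disagree, with differences of -0.37 and 0.04. ATP5F1C had -0.02, with mixed signs in the pairs. The 8 genes of the stalk and membrane part had a median of -0.07, and the 3 genes that encode the same c subunit of the rotor ring had 0.01. None of the 16 genes passed the test, and 4, all lower, were at an unadjusted p under 0.05 (14.1% of all genes).

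The c subunit genes encode an identical mature protein from different precursors, and they did not lie together. ATP5MC2 stood at 0.00, -0.00 and 0.28 untreated and at -0.39, -0.54 and 0.06 with TGF-β, a difference of -0.38 (n = 3 pairs; 95% interval -0.62 to -0.15; limma adjusted p = 0.0728). It was lower with TGF-β in every pair, though the replicate 3 TGF-β array lay above both other untreated arrays. ATP5MC1 stood at -0.00, -0.26 and 0.70 untreated and at 0.00, -0.12 and 0.71 with TGF-β (0.05, interval -0.16 to 0.27), and ATP5MC3 at 0.02, -0.25 and 0.60 against -0.02, -0.31 and 0.74 (0.01, interval -0.20 to 0.23). The difference between these genes was not tested. ATP5MJ, a small subunit of the membrane part, was the highest of complex V, with -0.01, -0.14 and 0.50 untreated and -0.07, 0.01 and 0.62 with TGF-β (0.07, interval -0.15 to 0.29).

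The other genes of complex V with an unadjusted p under 0.05, named after their values were seen, were ATP5PO (-0.31, limma adjusted p = 0.186), ATP5F1B (-0.24, limma adjusted p = 0.219) and ATP5PD (-0.22, limma adjusted p = 0.217). ATP5F1B is the catalytic β subunit, and ATP5PO and ATP5PD belong to the peripheral stalk. ATP5F1B stood at 0.06, -0.04 and 0.17 untreated and at -0.26, -0.40 and 0.12 with TGF-β. In the pair of replicate 3 the difference was -0.07 for ATP5PO, -0.05 for ATP5F1B and -0.12 for ATP5PD, the smallest of the 3 pairs in each of them.

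Set side by side, the complexes differed by little. Of the 10 comparisons between complexes, the difference of the medians kept 1 sign in all 3 pairs in 3. Complex V lay below complex I by a mean of -0.11 log2 units (-0.10, -0.22 and -0.01, SD 0.104), and below complex IV by -0.08 (-0.08, -0.15 and -0.01, SD 0.0698). Complex III lay below complex I by -0.02 (SD 0.0177). Genes of a complex are not replicates, so these differences carry no test. In all 3 the SD over the pairs was close to the size of the difference or above it.

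**Figure D2:**
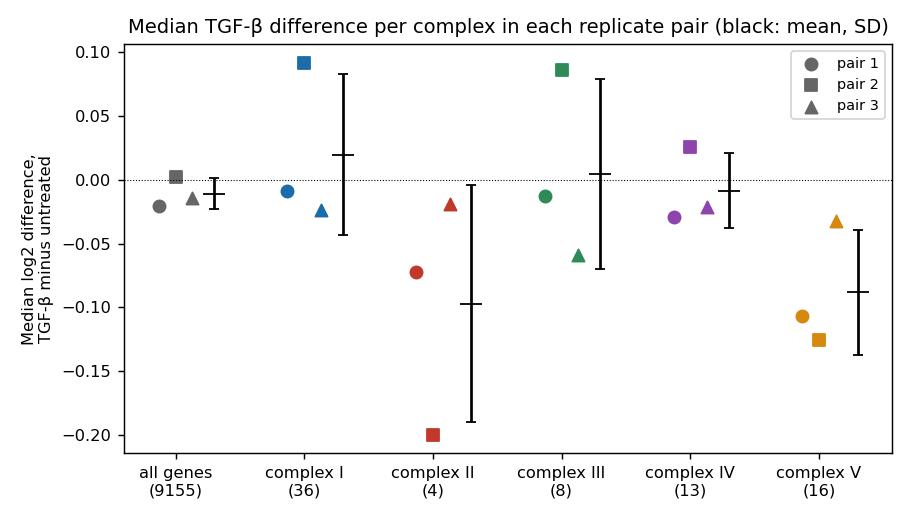
Median over the genes of each complex of TGF-β minus untreated, in log2 units, in each of the 3 replicate pairs (coloured points), with the mean and SD of the 3 pairs in black, beside all genes in grey. The medians of complexes I, III and IV lie on both sides of 0 among the pairs, and those of complexes II and V lie below it in all 3.

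The assembly factors, which help to build complexes I and II without staying in them, held the gene with the lowest p-value of the 88, and none passed the test. They are named here after their values were seen. NDUFAF6, for complex I, stood at 0.07, -0.07 and -0.44 untreated and at 0.46, 0.22 and -0.09 with TGF-β. Its difference was 0.34 ± 0.0878 (limma SE, n = 3 pairs, limma adjusted p = 0.0679). SDHAF4, for complex II, stood at -0.16, 0.32 and -0.66 untreated and at 0.05, 0.66 and -0.05 with TGF-β. Its difference was 0.39 ± 0.106 (limma SE, n = 3 pairs, limma adjusted p = 0.0826). SDHAF3, for complex II, had -0.26 (limma adjusted p = 0.147). COX7A2L, which takes part in joining complexes III and IV into supercomplexes, had -0.22 (limma adjusted p = 0.200), and ATP5IF1, the inhibitor of ATP hydrolysis by complex V, -0.14 (limma adjusted p = 0.474). The last gene at an unadjusted p under 0.05 was NDUFC1, an accessory subunit of complex I, at 0.26 (limma adjusted p = 0.157).

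The genes varied more between replicates than between treatments. In the same limma fit, 45 of 88 genes differed between the replicate numbers at an adjusted p of 0.05, against 34.9% of all genes. In 43 of these 45 the replicate 3 array was the highest of its group in both groups, compared with 49.6% of all the genes called by this test. These 43 are 48.9% of the 88 genes, whereas 17.3% of all genes were called with replicate 3 highest in both groups. The exceptions were NDUFAF6 and SDHAF4, in which it was the lowest in both. With or without a call, replicate 3 was highest in both groups in 64 of 88 genes (28.7% of all genes) and lowest in both in 4 (23.2% of all genes). Replicate 3 was singled out because it stood apart on these arrays. Without it, 3 members differed between replicates 1 and 2, where 9.32% of all genes did. On single probe sets, 51 of 115 differed between the replicate numbers, against 27.5% of all probe sets. The quantity used below is the replicate 3 value minus the mean of replicates 1 and 2 in the same group, which rests on 1 array against the other two and has no test of its own.

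**Figure D3:**
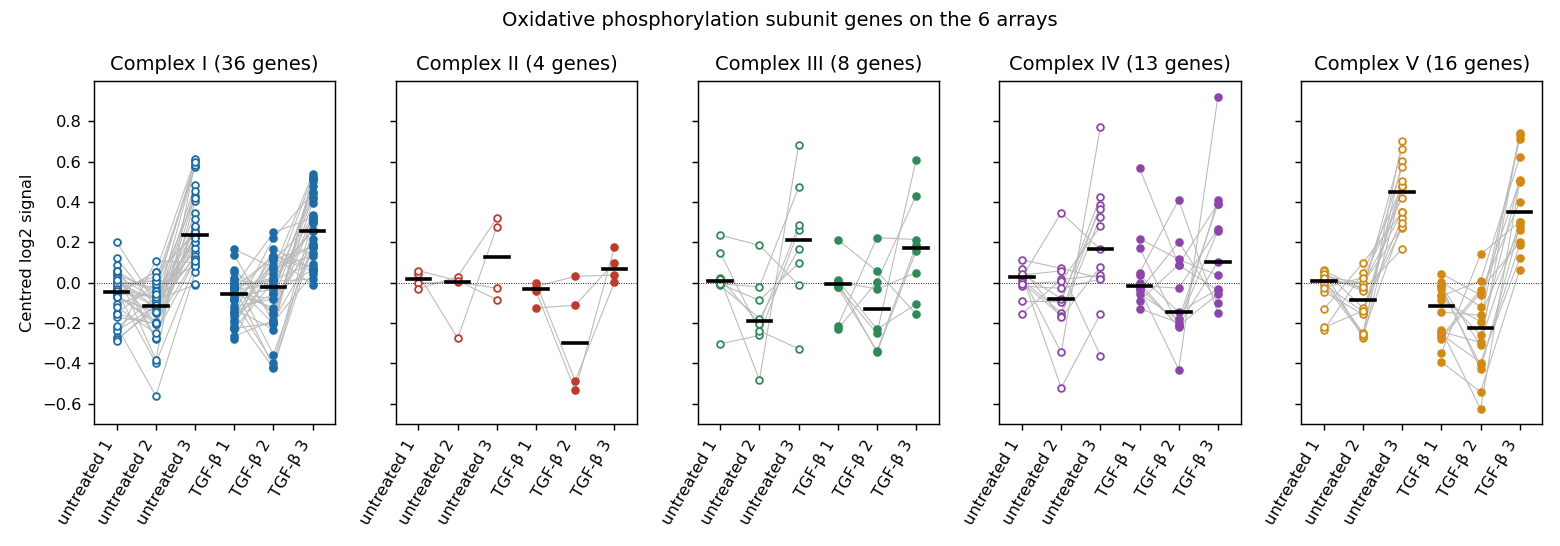
Centred log2 values (vertical axis) of the 77 subunit genes on the 6 arrays, by complex. Open points are untreated and filled points TGF-β arrays, thin lines join the arrays of a gene within a group, and black bars are medians over the genes. Replicate 3 is the highest array of its group for all 16 genes of complex V and for 29 of 36 of complex I, in both groups.

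The median of this quantity over the 88 genes was 0.37 log2 units in the untreated cultures and 0.36 with TGF-β, compared with 0.01 and 0.01 over all genes. Averaged over the groups, this is a 1.285-fold higher signal. It was 0.54 and 0.55 in complex V (1.435-fold), 0.39 and 0.35 in complex I, 0.32 and 0.27 in complex III, 0.15 and 0.23 in complex II, and 0.13 and 0.13 in complex IV. In 77 of 88 genes it exceeded the TGF-β difference in size, which it did in 65.6% of all genes. Across the 88 genes it correlated between untreated and TGF-β cultures with r = 0.831, and across all 9155 genes with r = 0.884. Genes are not independent, and each value shares its array with all others.

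Complex V had the largest share of such genes among the complexes. Of its 16 genes, 13 differed between replicates (34.9% of all genes), and replicate 3 was the highest array in both groups in 16 of 16 (28.7% of all genes). Its stalk and membrane part had 8 of 8 calls, F1 3 of 5 and the c ring 2 of 3. In ATP5MC1 replicate 3 exceeded the mean of replicates 1 and 2 by 0.84 and 0.77 log2 units without and with TGF-β (limma adjusted p of the F test 0.00241), and in ATP5MC3 by 0.72 and 0.90 (limma adjusted p = 0.00237). ATP5MC2, with 0.28 and 0.53, did not pass (limma adjusted p = 0.0525).

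In complex I, 18 of 36 genes differed between replicates, in complex II 1 of 4 (SDHC), in complex III 3 of 8 and in complex IV 4 of 13. Against 34.9% of all genes, the share was above in complex I, near in complexes III and IV and below in complex II, which has few genes. Of the genes outside the complexes, 5 of 8 assembly factors and 1 of 3 others (ATP5IF1) did. The largest F of all 88 genes was that of COX5A, a nuclear-encoded subunit of complex IV. It stood at 0.03, -0.35 and 0.77 untreated and at -0.03, -0.43 and 0.92 with TGF-β, so that replicate 3 was above the others by 0.93 and 1.15 (limma adjusted p = 0.000945). Its TGF-β difference was 0.00 (interval -0.22 to 0.23). In complex III, UQCRQ had 0.91 and 0.75 (limma adjusted p = 0.00271), and it was named after its values were seen.

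Some subunits did not share the high replicate 3. SDHA had -0.03 and 0.03 log2 units, COX4I1 -0.07 and 0.06, and COX6A1 0.11 and -0.13. In COX6A1, 1 probe set had 0.32 and 0.23 and the other -0.11 and -0.49. The muscle isoform COX6A2 had -0.41 and -0.18, COX7A1 0.04 and -0.38, and COX6B2 0.09 and -0.37, whereas COX7A2, the counterpart of COX7A1, had 0.41 and 0.52 (limma adjusted p = 0.0173). UQCRB, as the mean of 2 probe sets, had -0.28 and -0.29, the lowest array in both groups (limma adjusted p = 0.0579). Its probe sets went opposite ways, with 0.43 and 0.38 in 1 of them and -0.99 and -0.96 in the other. The value of UQCRB therefore rests on 1 probe set that the other contradicts. NDUFA4 had 0.38 and 0.51 (limma adjusted p = 0.0223), and NDUFA4L2 -0.24 and -0.14 (limma adjusted p = 0.301). A difference between isoforms was not tested.

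**Figure D4:**
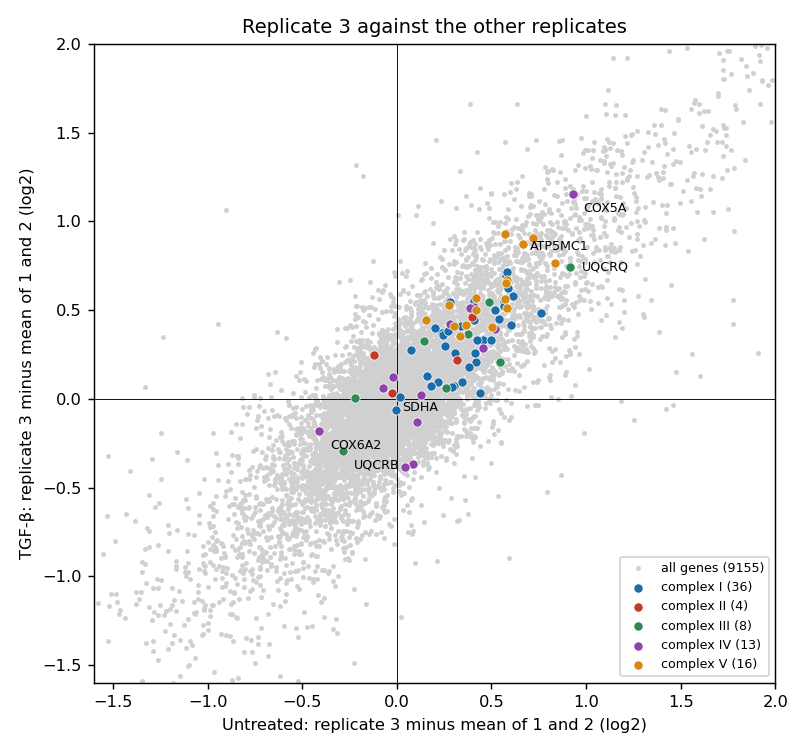
Replicate 3 minus the mean of replicates 1 and 2, in log2 units, in the untreated (horizontal axis) and TGF-β (vertical axis) cultures, for the subunit genes by complex (coloured) and all 9155 genes (grey), of which 213 lie outside the axes. Complex V lies in the upper right part throughout, whereas SDHA lies near 0 and COX6A2 and UQCRB lie below 0 on both axes. UQCRB is the mean of 2 probe sets that lie on opposite sides of 0.

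Genes that work with the complexes were taken from lists chosen with earlier results of these data known. The subunits encoded in mitochondrial DNA were not analysed here. Of 18 measured assembly factors of complexes III to V, 5 of complex I outside the name rule, 11 enzymes of the citric acid cycle, 12 factors of mitochondrial biogenesis and 9 carriers and porins, the paired limma fit called 0. At an unadjusted p under 0.05 these lists had 4, 2, 0, 3 and 1 genes in that order. COA1 stands in both lists of assembly factors and is counted in the 4 and in the 2. All genes were called at 6.82% and had an unadjusted p under 0.05 at 22.5%, and among these lists those of 5 and of 12 lay above the latter share. COA5, for complex IV, came closest, with -0.41 (limma adjusted p = 0.0518), and POLG2, the accessory subunit of the mitochondrial DNA polymerase, had -0.49 (limma adjusted p = 0.0980). Of the 10 genes of the pyruvate dehydrogenase complex and its kinases, 1 fell, the kinase gene PDK3 (-1.75, limma adjusted p = 0.00102).

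In glycolysis, which supplies pyruvate to the mitochondria, 2 of 16 genes fell (4.58% of all genes) and none rose (2.24% of all genes). At an unadjusted p under 0.05, 7 of 16 were lower (14.1% of all genes) and 0 higher (8.41% of all genes). PFKP, the platelet form of phosphofructokinase, stood at 0.73, 0.03 and 0.18 untreated and at -0.03, -0.70 and -0.40 with TGF-β (-0.69, limma adjusted p = 0.00865). PKM, pyruvate kinase, stood at -0.09, 0.09 and 0.81 untreated and at -0.80, -0.37 and 0.31 with TGF-β (-0.56, limma adjusted p = 0.0201). The groups of PFKP did not overlap, and those of PKM did. Of 9 hypoxia-responsive genes, 2 rose (2.24% of all genes) and 1 fell (4.58% of all genes). At an unadjusted p under 0.05, 4 were higher and 3 lower (8.41% and 14.1% of all genes). The glucose transporter SLC2A1 rose by 1.76 log2 units and the growth factor VEGFA by 1.24 (limma adjusted p = 0.0172 and 0.00465). The peptide hormone gene ADM fell by 0.70 (limma adjusted p = 0.0136). NDUFA4L2, which stands in that list too, did not pass. Of 67 mitochondrial ribosomal protein genes 1 fell (MRPS6, -0.57), and of 67 cytosolic ones 2 did (RPL24, -0.72, and RPS27L, -0.45), against 4.58% of all genes. The median over the mitochondrial list was 0.05, and at an unadjusted p under 0.05 it had 11 higher and 3 lower genes (8.41% and 14.1% of all genes). Of 23 cell cycle genes 0 were called, and 7 were lower at an unadjusted p under 0.05 (14.1% of all genes).

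High values in replicate 3 were found in some of these lists and not in others. The replicate 3 quantity had a median of 0.34 in the untreated and 0.38 in the TGF-β cultures over the mitochondrial ribosomal proteins, where 37 of 67 genes differed between replicates by the limma F test, against 34.9% of all genes. In glycolysis it was 0.43 and 0.67 (13 of 16), and in the citric acid cycle 0.24 and 0.32 (4 of 11, near the share of all genes). Over the 9 carriers and porins it was 0.14 and 0.45, with 4 genes called, against 34.9% of all genes. The ADP/ATP carriers went different ways. SLC25A5 had 1.23 and 1.25 (limma adjusted p = 0.000755), SLC25A4 -0.50 and -0.64 (limma adjusted p = 0.00984) and SLC25A6 0.14 and 0.06 (limma adjusted p = 0.513). Over the cytosolic ribosomal proteins the quantity was -0.01 and 0.03 (2 of 67). The cell cycle list had 2.44 and 2.46 log2 units, and 22 of its 23 genes differed between replicates. Chondrocyte markers had -0.73 and -0.56, with 7 of 9 genes called. With or without a call, 6 were lowest in replicate 3 in both groups, and 4 of these were called. Fibroblast or synovial markers had -0.16 and -0.15, with 6 of 9 genes called, among them THY1 with -0.78 and -0.75. Of these 6, replicate 3 was lowest in both groups in 1, and in 5 it was neither highest nor lowest in both. Of the adipocyte markers 2 of 3 were called, 1 with replicate 3 highest in both groups and 1 with it lowest in both. Their medians were -0.095 and 0.12 over the 3 genes. The called marker with replicate 3 highest was FABP4, a fatty acid-binding protein gene, with 4.85 and 3.48 (limma adjusted p = 0.000250). The other called adipocyte marker went the opposite way. Of leukocyte, endothelial, osteoblast, muscle and red blood cell markers, 2 of 8, 1 of 7, 1 of 3, 0 of 6 and 1 of 3 were called. The ADP/ATP carriers, THY1 and FABP4 were chosen after their values were seen. The part of the cell cycle genes and of these cell type markers in the replicate 3 values of the oxidative phosphorylation genes was not tested.

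**Figure D5:**
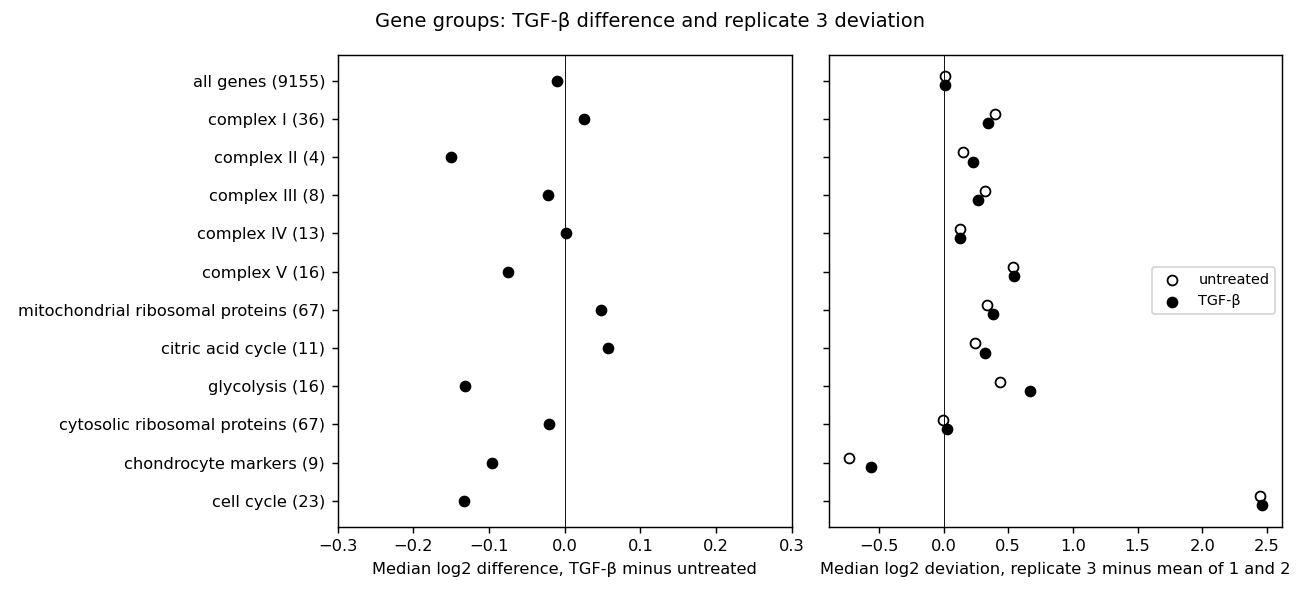
Median log2 difference of TGF-β minus untreated and median replicate 3 deviation in the untreated and TGF-β cultures, for the complexes and for the other gene lists. The replicate 3 medians of the cell cycle list reach 2.44 and 2.46, those of complex V 0.54 and 0.55, and those of the cytosolic ribosomal proteins stay near 0.

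By treatment, COMP, a cartilage matrix protein, rose by 0.92 and CNMD, chondromodulin, fell by 0.59 among the 9 chondrocyte markers (limma adjusted p = 0.0428 and 0.0329). Of 9 fibroblast or synovial markers PRG4 rose by 0.86 and COL1A2 fell by 0.57, and of 3 osteoblast markers IBSP fell by 1.12. No marker of leukocytes (8 measured), endothelial cells (7), adipocytes (3), muscle (6) or red blood cells (3) passed the paired limma test, and 1, 0, 1, 1 and 0 of them had an unadjusted p under 0.05. Of all genes, 6.82% were called and 22.5% had such a p. These markers show how the arrays differ, and not which cells were present.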

How the data were processed

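The deposited values are log2 signals of 24128 probe sets on 6 arrays, which the authors made with Robust Multichip Average in GeneSpring (background subtracted, arrays normalized, default settings) and which are centred on each probe set's median. They were used as deposited. The array maker's 112 controls were left out. Of 24016 probe sets, 13292 had 1 symbol, 86 several and 10638 none in the platform annotation, and 13263 were matched to current symbols by Entrez ID. Probe sets of a gene were averaged, giving 9155 genes, 2913 with more than 1 probe set. As levels are lost, no filter on dim signal was possible. Array number limits the precision.

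TGF-β minus untreated was tested 2-sided with limma 3.58.1 (R 4.3.3; lmFit, eBayes) on all genes, with the replicate number as a block, and replicates with the F test of the same fit, both Benjamini-Hochberg adjusted at 0.05. Numbers were taken to pair the arrays because every same-numbered pair of deviations had r above 0.1. A differently numbered pair also passed this limit (untreated replicate 2 with TGF-β replicate 1, r = 0.185), so the limit alone does not set the pairs apart. The study's methods give both treatments to the cells of each cow. Residual degrees of freedom were 2 and prior degrees of freedom 4.98. The SE, intervals and p-values of this fit use a variance that eBayes moderates towards that of all genes. No 2 arrays were copies (at most 56 identical values in a pair).

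The members and all gene lists were chosen with earlier results of these data known. Genes were named by a rule: the highest and lowest difference in each complex, isoform groups and the 3 largest F values. Any member called, or with probe sets over 1 log2 unit apart in their TGF-β difference, was to be named, and none was. In other lists every call was named where there were 5 or fewer. Distances between probe sets on single arrays or in the replicate 3 quantity were not part of the rule. Others are said to be chosen after their values were seen. Alternatives were the fit without the block, each replicate left out, quantile normalization, array medians set to 0, the median of probe sets, robust eBayes, the methods' t-test and single probe sets. Scanner files were not used here. Figures were drawn with matplotlib 3.10.9.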

Additional observations from a re-analysis of the deposited data

How the results depend on the processing

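No oxidative phosphorylation gene was called under 9 of the 10 alternatives, and leaving out 1 replicate at a time gave 0 to 1 calls, the 1 being COX6B2 without replicate 3. Without the replicate block, limma on the groups alone called 0 members and 0 of all genes, so every call rests on the paired fit. All genes called numbered 320 without replicate 1, 202 without replicate 2, 431 without replicate 3 and 323 after quantile normalization, against 624. The count of members that differed between replicates was 3 to 40 when 1 replicate was left out, with 3 without replicate 3, and 39 to 46 under the other gene-level settings. Leaving out 1 replicate moved the median over all subunits between -0.0342 and 0.0111 log2 units, complex I between -0.01 and 0.06, complex II between -0.18 and -0.0403, complex III between -0.05 and 0.00, complex IV between -0.02 and 0.01 and complex V between -0.12 and -0.06. Under quantile normalization the median of complex IV was 0.0340. The cause was not tested. Of the 19 genes named by rule, 5 changed sign under some setting, all with a difference of at most 0.157 in size. With 3 pairs and centred values, differences of the size seen in most of these genes could not be called, and the depth of signal over background is unknown.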
